A study of Mus musculus with 12 samples.

Results

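The genes described here are 37 mouse genes of the hypoxia response and of glycolysis, found in the count table by their symbols. Of the 37, 16 encode glycolytic enzymes from hexokinase to lactate dehydrogenase, and 21 are other genes tied to the hypoxia-inducible factor HIF: HIF itself, its oxygen sensors, transporters, regulators of glycolytic flux and targets outside glycolysis. All 37 were listed among 24956 gene symbols, and 35 passed the filter on low counts and were tested, 15 enzymes and 20 others. The rule that picks them uses gene symbols and no measured value, but the members were chosen with earlier results of these data known. RNA was measured in 12 tumours of PDA.69, a single pancreatic ductal adenocarcinoma line derived from the KPC mouse model whose label says T-cell-low. Of these, 6 tumours grew in wild-type (WT) hosts and 6 in hosts labelled Alb-Cre+/+ STAT3f/f, called Alb-Cre Stat3f/f below, in which the albumin promoter drives Cre in hepatocytes and both copies of Stat3 are floxed. The tumour line is the same in both groups and was not itself altered by the host genotype. The sources used here do not give age, sex, treatment or time of tumour growth. Nothing in them says that the tumours are from separate mice, so p-values reflect only how these samples spread, which may be technical.

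In cells with enough oxygen, prolyl hydroxylases of the Egln family mark the HIF alpha subunit for destruction. When oxygen is scarce the subunit persists, pairs with Arnt and binds DNA at hypoxia response elements. Its targets take up glucose, drive glycolysis to lactate, divert pyruvate from mitochondria, export acid and promote vessel growth. Pancreatic ductal adenocarcinoma is known as a poorly perfused and hypoxic tumour with high glycolysis. HIF activity is set mainly through the stability of the protein, which RNA does not report.

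The libraries held 5691707 to 8085609 counts. Levels of some markers of other cells differed between the genotypes. The 22 genes of pancreatic acinar cells took 0.591 to 22.7% of counts in WT tumours (median 4.03%) and 0.858 to 43.7% in Alb-Cre Stat3f/f tumours (median 28.3%). This share exceeded 15% for Alb-Cre Stat3f/f 1, 2, 3 and 4 and for WT 5. All 22 acinar genes had a log2 fold change above 0, but 0 of them passed in the test by genotype described below. All 10 epithelial markers of the tumour cells were detected and tested, and none was at 0; 2 of them fell (Krt7 and Sox9), 8 did not pass, and their summed level was 3697 to 4475 CPM (TMM-scaled CPM, a count divided by its library's scaled total) in WT and 2774 to 3517 CPM among Alb-Cre Stat3f/f tumours. Of the 10 macrophage markers 6 rose and 0 fell, with a summed level of 1217 to 1792 CPM in WT and 1701 to 2592 CPM among Alb-Cre Stat3f/f tumours. All 9 T cell markers had a log2 fold change above 0, 1 rose (Cd247) and 8 did not pass, with a median of 1.09 and a summed level of 17.1 to 49.5 CPM in WT tumours and 51.2 to 103 CPM among Alb-Cre Stat3f/f tumours. The part of macrophages and T cells in the results below was not tested. Markers of skeletal muscle, a tissue rich in glycolytic enzymes, summed to at most 3.11 CPM in any tumour, and none of its 10 genes passed the filter. In whole tumours, fewer cells of a type and less RNA per cell cannot be told apart.

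Hilpda, Adm, Egln3 and Mxi1, genes of the hypoxia response outside glycolysis, fell in the Alb-Cre Stat3f/f group. Of the 20 tested, 4 fell, 0 rose and 16 did not pass in edgeR (quasi-likelihood test, p adjusted by the method of Benjamini-Hochberg over all 12856 genes, threshold 0.05). Over all genes tested, 0.747% were called lower and 2.23% higher. The median log2 fold change of the 20 genes was -0.40, beside -0.00077 over all genes, and 19 of the 20 had a fold change below 0, as did 50% of all genes. In 3 of the 20 (Hilpda, Egln3 and Ankrd37) every Alb-Cre Stat3f/f tumour lay below every WT tumour, which held for 0.646% of all genes.

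Hilpda encodes a small protein that blocks lipolysis and lets lipid droplets build up under hypoxia. Its level ran from 127.5 to 250.8 CPM in WT tumours (median 192) and from 75.7 to 116 CPM in Alb-Cre Stat3f/f tumours (median 92.9). The groups did not overlap, and the highest Alb-Cre Stat3f/f tumour was number 2, one of the tumours richest in acinar genes. The mean fell from 194 ± 50.8 to 93.6 ± 14.7 CPM (SD, n = 6 each), a log2 fold change of -1.05 ± 0.16 (SE, edgeR adjusted p 0.00173). The call held in each of 12 fits that left out 1 tumour (adjusted p 0.000344 to 0.00648), and when the acinar score entered as covariate (log2 fold change -1.17, adjusted p 0.00111 by edgeR). With the 5 tumours over 15% acinar counts left out, which leaves 5 WT and 2 Alb-Cre Stat3f/f tumours, the log2 fold change was -0.95 ± 0.23 and the edgeR adjusted p 0.0946.

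Adm encodes adrenomedullin, a peptide that widens vessels. It had 8.28 to 25.2 CPM in WT tumours (median 20.2) and 6.34 to 13.8 CPM in Alb-Cre Stat3f/f tumours (median 7.08). WT 4 alone of the WT tumours lay within the Alb-Cre Stat3f/f range, while 4 of the Alb-Cre Stat3f/f tumours were below all WT tumours. Adm had a log2 fold change of -1.14 ± 0.26 (adjusted p 0.0220 by edgeR). The call held in 10 of the 12 fits that left out 1 tumour and was lost without Alb-Cre Stat3f/f 1 or 3, with an adjusted p of up to 0.0644 in edgeR.

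Egln3 encodes an oxygen-sensing prolyl hydroxylase that is itself a HIF target. It had 157 to 242.5 CPM in WT tumours (median 182) and 76.5 to 155.5 CPM in Alb-Cre Stat3f/f tumours (median 119), with no overlap, though Alb-Cre Stat3f/f 5 and 6, at 145 and 155.5 CPM, came close to WT 4 at 157. Egln3 had a log2 fold change of -0.70 ± 0.17 (adjusted p 0.0339 by edgeR). Mxi1, a Myc antagonist that HIF induces, had 37.4 to 53.8 CPM in WT tumours (median 45.0) and 25.9 to 39.2 CPM in Alb-Cre Stat3f/f tumours (median 34.0). Alb-Cre Stat3f/f 3 alone lay above the lowest WT tumour. For Mxi1 the log2 fold change was -0.47 ± 0.13 (adjusted p 0.0485 by edgeR). With 1 tumour left out, Egln3 passed in 4 of 12 fits (leaving out Alb-Cre Stat3f/f 3, 5 or 6, or WT 4) and Mxi1 in 3 of 12 (leaving out Alb-Cre Stat3f/f 3 or 4, or WT 4), and the adjusted p ran up to 0.0727 and 0.121 in edgeR.

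**Figure D1:**
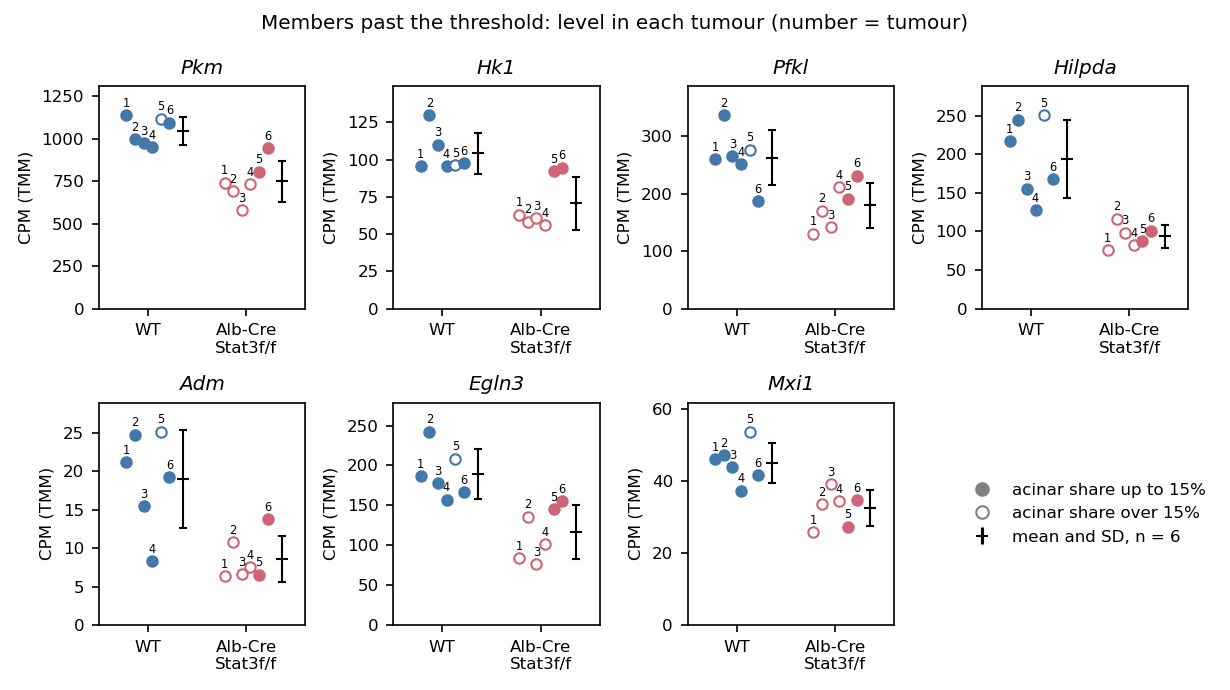
Level in CPM of the 7 members past the threshold in each of 12 tumours, with the tumour's number beside each point, open points for tumours with over 15% acinar counts, and the mean and SD of each genotype (n = 6) in black. Pkm, Hk1, Hilpda and Egln3 do not overlap between genotypes, and for Hk1 and Egln3 Alb-Cre Stat3f/f tumours 5 and 6 lie just below the lowest WT tumour.

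The sequence before the start of these genes was searched for the core of the hypoxia response element, ACGTG or GCGTG on either strand, since many of the members are known HIF targets. RefSeq (GRCm38.p6) gave a promoter for 34 of the 37 members, and the 250 bases before the most upstream start of each were read. ACGTG or GCGTG was found in 15 of 18 promoters of the other HIF-related genes (83.3%), in 10 of 16 of the enzymes (62.5%) and in 10442 of 27025 promoters over all genes (38.6%). A match of 5 letters is a description of the sequence and no evidence of binding. The windows of the 3 members with the lowest fold changes among those past the threshold, and of 2 enzymes, are shown, with each match in capitals, where CACGT and CACGC are the cores read on the other strand. None of these 5 windows overlaps an exon of GENCODE M21, but windows of some other members do and are included in the counts.
Hilpda (chr6:29272238-29272487, plus strand): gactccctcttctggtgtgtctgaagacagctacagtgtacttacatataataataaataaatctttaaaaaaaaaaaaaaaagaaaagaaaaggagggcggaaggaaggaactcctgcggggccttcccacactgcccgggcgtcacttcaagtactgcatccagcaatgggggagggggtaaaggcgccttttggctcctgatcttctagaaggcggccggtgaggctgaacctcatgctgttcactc
Adm (chr7:110627407-110627656, plus strand): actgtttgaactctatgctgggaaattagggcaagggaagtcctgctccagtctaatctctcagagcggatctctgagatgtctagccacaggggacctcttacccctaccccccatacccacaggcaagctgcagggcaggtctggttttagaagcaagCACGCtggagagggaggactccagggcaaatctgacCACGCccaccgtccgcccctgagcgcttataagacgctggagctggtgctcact
Egln3 (chr12:54203875-54204124, minus strand): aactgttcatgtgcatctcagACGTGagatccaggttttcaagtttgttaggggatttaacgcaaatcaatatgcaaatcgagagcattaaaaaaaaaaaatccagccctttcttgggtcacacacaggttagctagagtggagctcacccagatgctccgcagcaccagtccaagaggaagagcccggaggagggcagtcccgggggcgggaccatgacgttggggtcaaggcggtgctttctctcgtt
Hk2 (chr6:82774455-82774704, minus strand): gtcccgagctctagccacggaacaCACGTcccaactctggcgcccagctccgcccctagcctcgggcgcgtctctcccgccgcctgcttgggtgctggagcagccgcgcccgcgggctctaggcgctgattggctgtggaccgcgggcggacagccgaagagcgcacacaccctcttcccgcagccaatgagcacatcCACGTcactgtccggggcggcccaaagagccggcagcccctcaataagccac
Pgk1 (chrX:106186850-106187099, plus strand): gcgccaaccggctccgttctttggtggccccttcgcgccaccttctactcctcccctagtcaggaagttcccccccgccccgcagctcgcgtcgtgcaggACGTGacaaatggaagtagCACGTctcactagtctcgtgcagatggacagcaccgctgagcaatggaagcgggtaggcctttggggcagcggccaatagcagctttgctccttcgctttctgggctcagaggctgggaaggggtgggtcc

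Adm held 2 GCGTG cores, whose first bases lie 90 and 54 bases before the start. Egln3 held 1 ACGTG core, 229 bases before it. The 2 ACGTG cores of Pgk1 lie 150 and 131 bases before the start, and those of Hk2 226 and 52 bases. Hilpda, the member with the smallest p, held none of these letters in this window, nor did Mxi1, Pkm and Hk1. Of the 7 members that fell, enzymes included, 3 held a core (Adm, Egln3 and Pfkl).

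Hif1a, which encodes one of the oxygen-regulated alpha subunits, had nearly the same level in both genotypes. It had 102 to 162 CPM in WT tumours (median 123.5) and 99.4 to 147 CPM in Alb-Cre Stat3f/f tumours (median 136), with wide overlap and a log2 fold change of 0.0077 ± 0.13 (adjusted p 0.982 by edgeR). Epas1, which encodes another alpha subunit and was not a member, had 18.7 to 27.8 CPM in WT and 23.8 to 41.4 CPM among Alb-Cre Stat3f/f tumours. Its log2 fold change was 0.44 ± 0.15 and it did not pass (adjusted p 0.107 by edgeR). Egln1, the main oxygen sensor, had a log2 fold change of -0.32 ± 0.15 (adjusted p 0.231 by edgeR). With the acinar score as a covariate that of Egln1 was -0.56 ± 0.11 and it passed (edgeR adjusted p 0.0142).

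Of the 3 transporters 0 passed in edgeR, with 1 at an unadjusted p under 0.05 (Slc2a1, which passed in DESeq2), beside 19.4% of all genes at such a p in edgeR. Slc2a1 encodes GLUT1, the main glucose importer of tumour cells, and had 35.5 to 91.3 CPM in WT tumours (median 63.5) and 30.8 to 46.0 CPM in Alb-Cre Stat3f/f tumours (median 39.1). WT 4 and 6 lay within the Alb-Cre Stat3f/f range and the other WT tumours above it. The log2 fold change of Slc2a1 was -0.61 ± 0.18 (adjusted p 0.0793 by edgeR), and it passed at -0.83 ± 0.16 once the acinar score was a covariate (edgeR adjusted p 0.0137). Slc2a3, a neuronal and leukocyte glucose importer with 6 to 42 counts a tumour, had a log2 fold change of -0.39 ± 0.40. Slc16a3, the lactate exporter MCT4, had -0.19 ± 0.20.

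Of the 3 regulators of flux 0 passed in edgeR as well, with 1 at an unadjusted p under 0.05 (Pfkfb3, which passed in DESeq2), beside the same 19.4% of all genes. Pfkfb3, whose product makes the activator of phosphofructokinase, had 31.3 to 46.6 CPM in WT and 19.7 to 38.1 CPM among Alb-Cre Stat3f/f tumours, of which 5 of 6 lay below every WT tumour. For Pfkfb3 the log2 fold change was -0.51 ± 0.15 (adjusted p 0.0705 by edgeR). Its paralog Pfkfb4 had -0.0014 ± 0.22, and Pdk1, a kinase that shuts pyruvate dehydrogenase, -0.28 ± 0.17.

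Of the carbonic anhydrases, which handle acid, Car9 could be tested and did not pass. Car9, a widely used hypoxia marker, had 7.38 to 31.6 CPM in WT tumours (median 20.9) and 9.23 to 27.9 CPM in Alb-Cre Stat3f/f tumours (median 18.1). The ranges nearly coincide, and the log2 fold change of Car9 was -0.21 ± 0.33 (adjusted p 0.774 by edgeR). With the acinar covariate that of Car9 was -0.55 ± 0.31 (edgeR adjusted p 0.558). Car12 was not tested, since it had 1 to 35 counts in a WT tumour and 2 to 11 in an Alb-Cre Stat3f/f tumour, 88 and 37 in all.

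The remaining members outside glycolysis did not pass. Bnip3 and Bnip3l, receptors that send mitochondria to autophagy, had log2 fold changes of -0.74 ± 0.29 and -0.32 ± 0.12. For Bnip3, 63.9% of the 50-base words in the last 500 bases of its transcripts also occur in transcripts of other annotated genes, so its reads may be shared with copies. P4ha1 and P4ha2, which hydroxylate collagen, had -0.41 ± 0.21 and -0.23 ± 0.20. Ndrg1, a stress-induced gene with 194 to 513 CPM in WT and 200 to 302 CPM among Alb-Cre Stat3f/f tumours, had a log2 fold change of -0.63 ± 0.22 (adjusted p 0.126 by edgeR). WT 6 was the lowest tumour of all 12 for Ndrg1. Ankrd37, an ankyrin repeat gene with 3 to 28 counts a tumour, had a log2 fold change of -0.87 ± 0.36, and Kdm3a, a histone demethylase, -0.20 ± 0.13.

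Over both classes 7 members fell in edgeR. With RLE scaling 7 were called lower (0.793% of all genes), without a count filter 8 (0.589%), with at least 10 CPM in 6 tumours 5 (0.926%), without acinar genes and Rn45s 8 (0.812%), with the replicate number as a block 5 (0.342%) and in DESeq2 13 (2.24%). The 6 members that DESeq2 added were Aldoc, Gapdh, Hk2, Ndrg1, Pfkfb3 and Slc2a1.

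**Figure D2:**
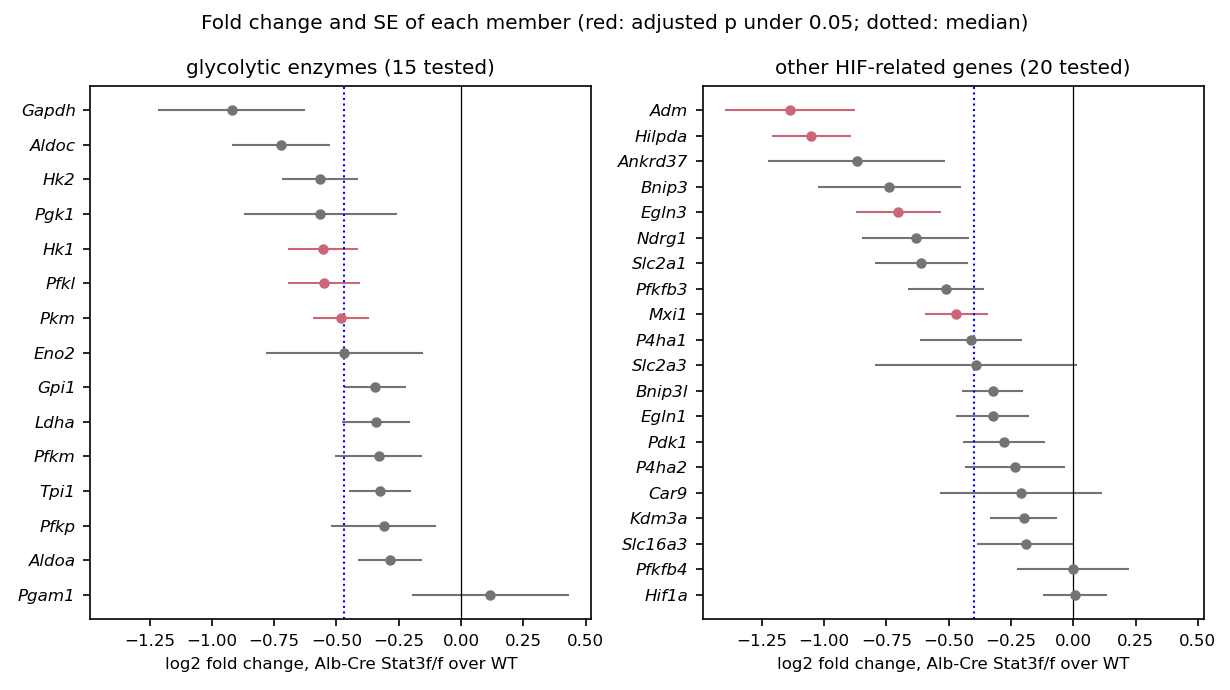
Log2 fold change of Alb-Cre Stat3f/f over WT tumours with its SE for the 15 glycolytic enzymes and 20 other HIF-related genes tested, in red where the edgeR adjusted p is under 0.05, with the class median dotted. Only Pgam1 and Hif1a lie above 0, and the medians are -0.47 and -0.40.

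Among the glycolytic enzymes Pkm, Hk1 and Pfkl fell in Alb-Cre Stat3f/f tumours. Of the 15 tested, 3 fell (Pkm, Hk1 and Pfkl), 0 rose and 12 did not pass by the edgeR test, beside 0.747% of all genes called lower. Of the 15, 14 had a log2 fold change below 0, from -0.92 to -0.28, and the exception was Pgam1 at 0.12 ± 0.31. The median was -0.47. In 2 of the 15 (Pkm and Hk1) every Alb-Cre Stat3f/f tumour lay below every WT tumour, beside 0.646% of all genes.

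Pkm encodes pyruvate kinase, the last step before lactate dehydrogenase, and had the most counts of the enzymes. It had 950 to 1139 CPM in WT tumours (median 1047) and 580 to 945 CPM in Alb-Cre Stat3f/f tumours (median 737). The groups did not overlap, and Alb-Cre Stat3f/f 6, at 945 CPM, lay just below WT 4. For Pkm the log2 fold change was -0.48 ± 0.11 (adjusted p 0.0231 by edgeR), and the call held in 7 of 12 fits that left out 1 tumour. It was lost when Alb-Cre Stat3f/f 1, 2 or 3, WT 1 or WT 6 was left out, with an edgeR adjusted p of at most 0.0585.

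Hexokinase makes the first committed use of glucose in the cell. Hk1 had 95.4 to 130 CPM in WT tumours (median 96.9) and 55.9 to 94.7 CPM in Alb-Cre Stat3f/f tumours (median 61.9). Alb-Cre Stat3f/f 1 to 4 lay at 55.9 to 63.0 CPM, while tumours 5 and 6, at 92.2 and 94.7 CPM, sat beside the lowest WT tumour. For Hk1 the log2 fold change was -0.55 ± 0.14 (adjusted p 0.0353 by edgeR). Hk2, the inducible form that dominates in many tumours, had 140 to 236 CPM in WT and 83.6 to 145 CPM among Alb-Cre Stat3f/f tumours and a log2 fold change of -0.56 ± 0.15 (adjusted p 0.0530 by edgeR).

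Of the phosphofructokinase subunits, which set the pace of glycolysis, Pfkl fell. It had 187 to 337 CPM in WT tumours (median 263) and 130.5 to 232 CPM in Alb-Cre Stat3f/f tumours (median 181), where 3 of 6 lay below every WT tumour and WT 6 was the lowest WT tumour. The log2 fold change of Pfkl was -0.55 ± 0.15 (adjusted p 0.0476 by edgeR), while Pfkm and Pfkp had -0.33 ± 0.17 and -0.31 ± 0.21. With 1 tumour left out, Hk1 passed in 3 of 12 edgeR fits (leaving out Alb-Cre Stat3f/f 5 or 6, or WT 5) and Pfkl in 4 of 12 (leaving out Alb-Cre Stat3f/f 4, 5 or 6, or WT 6), with adjusted p up to 0.0939 and 0.107.

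The remaining enzymes with ample counts did not pass, nor did Eno2, which had few. Gpi1, which isomerises glucose 6-phosphate, had a log2 fold change of -0.34 ± 0.12. The aldolases Aldoa and Aldoc, which split the sugar, had -0.28 ± 0.13 and -0.72 ± 0.20 (adjusted p 0.226 and 0.0545 by edgeR). Tpi1, triose phosphate isomerase, had -0.32 ± 0.12, and Eno2, the neuronal enolase with 15 to 59 counts a tumour, -0.47 ± 0.32. Ldha, which makes lactate, had 191 to 362 CPM in WT tumours (median 264) and 169 to 253 CPM in Alb-Cre Stat3f/f tumours (median 207), where WT 4 and 6 lay within the Alb-Cre Stat3f/f range and the other WT tumours above it, and a log2 fold change of -0.34 ± 0.14 (adjusted p 0.177 by edgeR).

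Some enzymes that are usually abundant had few counts or none, which bears on how their values can be read. Eno1 was listed at 0 in all 12 tumours. Its near-identical copy Eno1b, which was not a member, had 35.7 to 87.0 CPM in WT and 47.6 to 80.2 CPM among Alb-Cre Stat3f/f tumours (log2 fold change 0.013 ± 0.19). In the GENCODE M21 transcripts, 68.1% of the 50-base words in the last 500 bases of Eno1 transcripts occur in other genes, Eno1b most often. Whether reads of Eno1 were counted under Eno1b was not tested. Gapdh had 53 to 152 counts in a WT tumour and 18 to 99 in an Alb-Cre Stat3f/f tumour and 63.2% of its 50-base words occur in 201 other genes.

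In CPM, Gapdh ran from 6.39 to 19.0 in WT tumours (median 14.3) and from 3.86 to 12.7 in Alb-Cre Stat3f/f tumours (median 6.62). Its log2 fold change of -0.92 ± 0.29 (adjusted p 0.0923 by edgeR) was the lowest among the enzymes and rests on these few reads. Pgk1, with 9 to 51 counts a tumour, had a log2 fold change of -0.56 ± 0.31 and ran from 4.02 to 8.34 CPM in WT tumours (median 5.42) and 1.93 to 5.99 CPM among Alb-Cre Stat3f/f tumours (median 3.89). Pgam1 had 14 to 60 counts. For Pgk1 and Pgam1 the share of such words in other annotated transcripts was 7.32% and 0%. These shares count exact matches to annotated transcripts only, so they do not show how many reads map to more than 1 place. Enzymes with more counts shared such words too: Gpi1 36.9%, Pfkp 27.5%, Pkm 19.3%, Ldha 12.8%, Tpi1 10.3%, Aldoa 9.22% and Pfkm 0.709%. Hk1, Hk2, Pfkl and Aldoc were at 0%. The sources used here do not say how the authors treated reads that map to more than 1 place, and its part in these counts was not tested.

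Ratios of paralogs within a tumour do not depend on library scaling and were compared for 7 pairs by exact two-sided permutation tests over all 924 relabellings. After Benjamini-Hochberg adjustment over the 7 pairs 0 passed, with adjusted p from 0.206 to 0.994 by these exact tests. The ratio of Hk2 to Hk1 counts was 1.46 to 1.87 in WT and 1.38 to 2.44 among Alb-Cre Stat3f/f tumours (medians 1.72 and 1.56), a difference of 0.0021 on the log2 scale. The ratio of Aldoc to Aldoa had medians of 0.0776 and 0.0532, a log2 difference of -0.46 (exact permutation p = 0.0476, adjusted p = 0.206), with 4 of 6 Alb-Cre Stat3f/f tumours below every WT tumour. That of Egln3 to Egln1 had medians of 1.64 and 1.25, a log2 difference of -0.44 (exact permutation p = 0.136, adjusted p = 0.206).

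Within the Alb-Cre Stat3f/f group the mean log2 CPM of the 15 enzymes was 5.84 and 5.83 in Alb-Cre Stat3f/f 6 and 5, the tumours with the lowest acinar shares (13.5% and 0.858%), and 5.48 to 5.71 in tumours 1 to 4, where acinar genes took 27.1 to 43.7% of counts. In 5 of the 15 enzymes both tumours 5 and 6 lay above all of tumours 1 to 4, beside 10.6% of all genes. The mean of the 20 other genes followed no such order. It was highest in the acinar-rich tumour 2 (5.35) and in tumour 6 (5.26). It was lowest in the acinar-rich tumour 4 (4.93) and the acinar-poor tumour 5 (4.95). Only 1 of the 20 was higher in both tumours 5 and 6 than in all the rest.

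Within WT tumours the acinar-rich tumour did not stand low. WT 5, with 22.7% acinar counts, had mean log2 CPM of 6.10 for the enzymes and 5.80 for the other genes, level with WT 1 as the highest for the latter. It was the lowest WT tumour for 0 of the 15 enzymes and 0 of the 20 others, beside 19.5% of all genes. WT 6, with the lowest acinar share (0.591%), was the lowest of the WT tumours on both means (5.80 and 5.15) and for 14 of the 35 members, and WT 4 for 13. WT 2 was the highest for 14 members, 8 of them enzymes, WT 1 for 12 and WT 5 for 8, of which 7 were other HIF-related genes. The enzyme mean of WT 6 lay just below those of Alb-Cre Stat3f/f 5 and 6, and that of WT 4 (5.90) just above them.

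**Figure D3:**
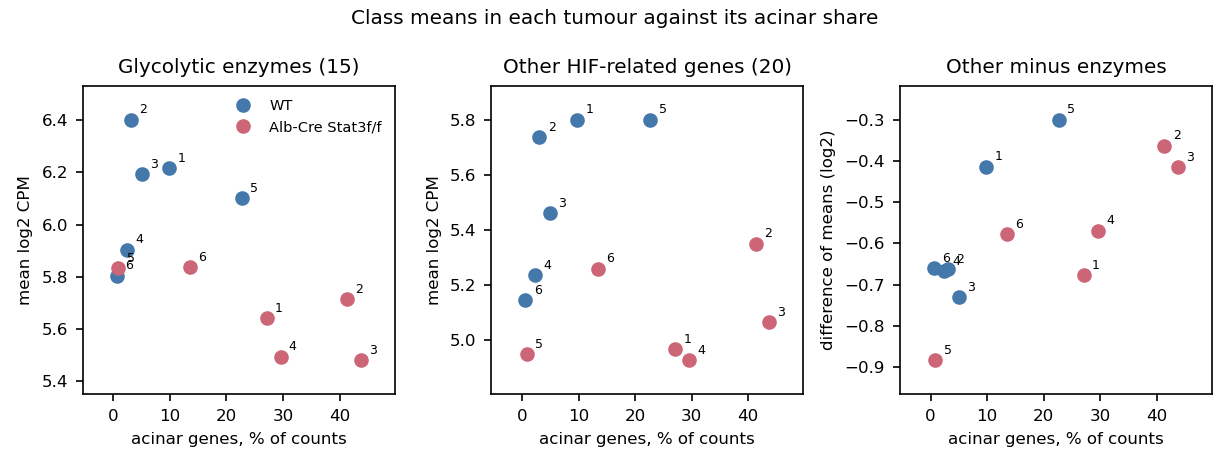
Mean log2 CPM of the 15 glycolytic enzymes and of the 20 other HIF-related genes, and their difference, in each tumour (numbered) against the share of its counts in acinar genes. Alb-Cre Stat3f/f tumours 5 and 6 have the highest enzyme means of their group, while tumour 2 has the highest mean of the other genes.

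The acinar score, the mean log2 CPM of the acinar genes, was then added to the fit as a covariate. Of the enzymes 0 then passed, and their median log2 fold change was -0.41. Of the other HIF-related genes 5 fell (Hilpda, Adm, Slc2a1, Egln1 and Mxi1), beside 0.187% of all genes called lower, and their median was -0.58. Thus 3 of the 7 original calls remained, all outside glycolysis. The SE was wider than without the covariate in 13 of 15 enzymes and in 12 of 20 other genes. Pkm had a log2 fold change of -0.43 ± 0.12 (adjusted p 0.0803), Hk1 -0.41 ± 0.13 (0.164), Pfkl -0.54 ± 0.17 (0.149) and Egln3 -0.63 ± 0.19 (0.145) in that edgeR fit. That the 2 classes differ in how far the covariate moved them was not tested.

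**Figure D4:**
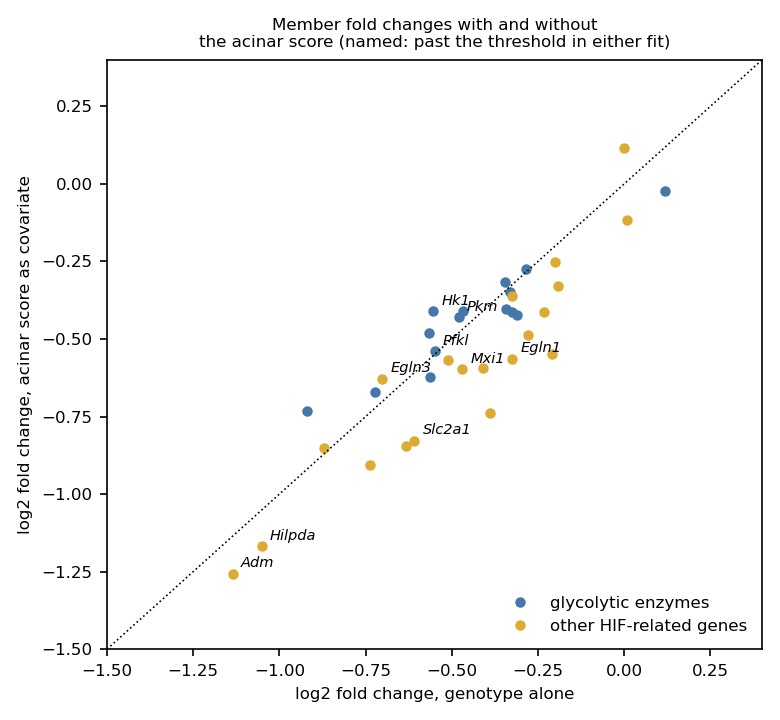
Log2 fold change of each of the 35 tested members by genotype alone (x axis) and after adding the acinar score as covariate (y axis), with names for members past the threshold in either fit and a dotted line of equality. Most other HIF-related genes lie below the line, among them Slc2a1 at -0.61 and -0.83, with 17 of 20 lower than without the covariate, and so do 6 of the 15 enzymes.

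Without the 5 tumours over 15% acinar counts 0 members passed, in a fit of 5 WT and 2 Alb-Cre Stat3f/f tumours that called 0.102% of all genes lower. The acinar share still differed among the tumours kept, at 13.5% in Alb-Cre Stat3f/f 6 and at most 9.81% in a WT tumour. The median log2 fold change was then -0.30 for the enzymes and -0.48 for the other genes. Both remaining Alb-Cre Stat3f/f tumours lay below all 5 remaining WT tumours in 3 of the 15 enzymes (Hk1, Pkm and Pfkm) and in 7 of the 20 other genes (Hilpda, Egln3, Mxi1, Ankrd37, Pfkfb3, Pdk1 and Slc2a3), beside 7.2% of all genes. In that fit the log2 fold change of Hk1 was -0.18 ± 0.15, of Pkm -0.23 ± 0.14, of Pfkl -0.30 ± 0.18 and of Egln3 -0.30 ± 0.16, all closer to 0 than over the 12 tumours. Those of Adm (-0.80 ± 0.41, beside -1.14 over the 12 tumours) and Hilpda (-0.95 ± 0.23, beside -1.05) were closer to 0 as well. That of Mxi1 was -0.48 ± 0.17, beside -0.47.

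Epithelial markers were lower in the same tumours, as given above. With the mean log2 CPM of the 10 epithelial markers as a covariate, 0 enzymes and 1 other gene passed, namely Hilpda at -1.29 ± 0.18 (adjusted p 0.00219 by edgeR), in a fit that called 0.0311% of all genes lower. The medians were -0.50 for the enzymes and -0.62 for the other genes, and the SE was wider in 15 of 15 enzymes and 19 of 20 other genes. Pkm had -0.42 ± 0.14 and Adm -1.27 ± 0.32 (adjusted p 0.407 and 0.194 by edgeR). This covariate was chosen after the data were seen.

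The enzymes varied between tumours of 1 genotype about as much as other genes. So did the other HIF-related genes among Alb-Cre Stat3f/f tumours, while among WT tumours their median SD was wider. The median SD of log2 CPM among WT tumours was 0.30 for the enzymes and 0.38 for the other HIF-related genes, beside 0.28 for all genes tested, and among Alb-Cre Stat3f/f tumours 0.32 and 0.29 beside 0.32. Pkm was among the steadiest, with an SD of 0.11 in WT and 0.23 among Alb-Cre Stat3f/f tumours. Car9 was among the most variable, with 0.76 and 0.54, and so was Slc2a3, with 0.43 and 0.83.

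Of 42 further genes of the HIF pathway 38 were tested, 1 fell, 1 rose and 36 did not pass, beside 0.747% of all genes called lower and 2.23% higher. The log2 fold change was below 0 in 26 of the 38, with a median of -0.23, and 14 of the 38 had an unadjusted p under 0.05, beside 19.4% of all genes. Vegfa, the vessel growth factor and a classical HIF target, fell from a median of 231 (166 to 291) to 122 (99.9 to 163) CPM with no overlap (log2 fold change -0.87 ± 0.14, adjusted p 0.00233 by edgeR). The call of Vegfa held in all 12 fits that left out 1 tumour and was lost without tumours over 15% acinar counts (log2 fold change -0.85, adjusted p 0.0867 by edgeR). Rora, a nuclear receptor, rose, with a log2 fold change of 0.88 ± 0.21 (edgeR adjusted p 0.0283), a call kept in 5 of those 12 fits (adjusted p up to 0.0733). With the acinar score as a covariate Rora was at 0.53 ± 0.16 (adjusted p 0.129 by edgeR).

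Of 37 further genes of glucose metabolism, which encode other isozymes and the enzymes of neighbouring pathways, 33 were tested, 1 rose, 0 fell and 32 did not pass, with a median log2 fold change of -0.011. These counts stand beside 2.23% of all genes called higher and 0.747% lower. Pck2, the mitochondrial enzyme that makes phosphoenolpyruvate in the direction opposite to glycolysis, rose from a median of 31.7 (24.5 to 38.4) to 51.2 (41.9 to 67.3) CPM with no overlap, as in 1.37% of all genes (log2 fold change 0.71 ± 0.14, adjusted p 0.00847 by edgeR). The call of Pck2 held in all 12 fits that left out 1 tumour and with the acinar covariate, and was lost with the epithelial one (log2 fold change 0.45, adjusted p 0.443 by edgeR) and without tumours over 15% acinar counts (0.56, adjusted p 0.172).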

How the data were processed

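Tumour RNA from fixed, paraffin-embedded tissue was sequenced with the QuantSeq 3' FWD kit, which read transcript ends, per the labels' protocols. The deposited values are raw counts per gene symbol. The submitters' processing notes name STAR and mm10; the sources used here do not give versions, counting tool, annotation, strand or multimapping settings, and no molecular identifiers are stated. Of 24982 table entries, 26 with a date number in place of a symbol (0.0690 to 0.166% of counts) were left out.

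The fits used edgeR 4.0.16 under R 4.3.3: filterByExpr by genotype (minimum count 10, total 15, proportion 0.7; 12856 genes left), TMM factors of 0.578 to 1.29, and the robust two-sided quasi-likelihood test with genotype as sole term, adjusted by Benjamini-Hochberg over all genes, threshold 0.05. Log2 CPM used a prior count of 2. The SE follows from the counts and from the spread between tumours that the fit estimates. On simulated counts the script called 34.3% of changes of 1.5-fold, 77.6% of 2-fold and 98.5% of 3-fold. A member that did not pass may thus still differ by a small fold. All 37 members are accounted for; values by tumour are given for members past the threshold, as counts for members below the filter, and for Hif1a, Slc2a1, Hk2, Pgk1, Gapdh, Ldha, Pkm, Hilpda, Car9 and Egln3, and of each pathway list the members past the threshold, or the 2 with the smallest p, of which 1 is not reported here. Epas1 is given as well, since it encodes another alpha subunit. The members and lists were chosen with earlier results of these data known. Alternatives were DESeq2 1.42.0, RLE factors, other filters, a replicate block, covariates and leaving out tumours. Promoters are from RefSeq, transcripts and exons from GENCODE M21.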

Additional observations from a re-analysis of the deposited data

Results flagged for a closer look

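Of 70 groups of 6 tumours checked (35 members in each genotype), 4 held a tumour whose gap to its nearest neighbour was a large part of the group's range (Dixon's test at its 95% critical value), where chance alone gives about 1 in 20 groups. Gpi1 was 418 CPM in WT 2, beside 291 in the next tumour, and Bnip3l was 94.4 CPM in WT 2, beside 72.3. Gapdh was 12.7 CPM in Alb-Cre Stat3f/f 5, beside 6.84, and Pfkm was 17.3 CPM in Alb-Cre Stat3f/f 4, beside 12.4.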

How the results depend on the processing

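Counts of calls moved with the method. DESeq2 called 618 genes higher and 288 lower, with 6 enzymes and 7 other members lower, all 7 calls of edgeR among them. With the acinar score as a covariate 118 rose and 24 fell (0 enzymes, 5 others); without tumours over 15% acinar counts 83 and 14 (0 and 0); with the epithelial score, an alternative chosen after seeing the data, 11 and 4 (0 and 1). Leaving out 1 tumour gave 141 to 471 genes higher, 37 to 222 lower, 0 to 5 enzymes lower, 1 to 4 other members lower and 0 members higher. With RLE factors, no count filter, a filter of 10 CPM in 6 tumours, or without acinar genes and Rn45s, 82 to 115 genes fell.

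The fit with the replicate number as a block (replicate block) called 145 genes higher and 44 lower, with 2 enzymes and 3 other members lower. Same-numbered tumours of the genotypes correlated at -0.51 to 0.13 in their deviations, and 0 of 6 correlated best with its own number, so the numbers were not taken as pairs.

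Members near 0 changed sign. The log2 fold change of Hif1a was -0.000318 with no filter, -0.12 with the acinar and -0.17 with the epithelial covariate. The log2 fold change of Pfkfb4 was 0.017 with the stricter filter, 0.12 with the acinar covariate and 0.33 without acinar-rich tumours. The log2 fold change of Pgam1 was -0.022 and -0.18, and the log2 fold change of Eno1b -0.19 and -0.012, with the acinar and epithelial covariates. With 1 tumour left out the ranges were -0.054 to 0.082 for Hif1a, -0.18 to 0.11 for Pfkfb4, -0.0767 to 0.26 for Pgam1 and -0.10 to 0.14 for Eno1b. The cause was not tested. Depth limits Slc2a3, Ankrd37, Pgk1, Pgam1, Eno2 and Car12, which had few counts.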
